A study of Mus musculus with 12 samples.

Results

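Signalling through the transcription factor STAT5 raises the transcripts of genes that restrain or extend the same signal. The genes described here were 10 known targets of STAT5, most of them of that kind: the cytokine signalling inhibitors Cish, Socs1, Socs2 and Socs3, the kinases Pim1, Pim2 and Pim3, the cytokine Osm, the receptor chain Il2ra and the repressor Bcl6. They were taken from the 18820 genes named on the array by their platform symbol, each represented by its probe set with the highest mean log2 intensity over all 12 arrays. The members lie on chromosome 9 (Cish), 16 (Socs1 and Bcl6), 10 (Socs2), 11 (Socs3 and Osm), 17 (Pim1), X (Pim2), 15 (Pim3) and 2 (Il2ra). Of the 10 members, 9 passed the filter on dim probe sets and were tested among 12345 genes, and Osm did not pass. The filter used the mean over all 12 arrays (59.9), and 3 of those 9 had groups under it. The mean of Cish and of Il2ra lay under it in all 3 empty-vector groups, so that they passed only through their TEL-AML1 levels, and that of Socs2 in untreated empty-vector cells. The other 6 were above it in every group. Transcript levels were measured in EML1, a mouse blood progenitor line from BDF1 marrow that was immortalised with the retroviral vector LRARalpha403SN, which all groups carry. The lentiviral vector pWPI was introduced empty or with TEL-AML1, a fusion of the transcription factors TEL and AML1 found in childhood leukaemia. Each was arrayed untreated and at day 5 and day 7 of IL7 and FLT3L, with 2 arrays for each of the 6 groups. In the treatment described by the labels, 50000 cells were placed on OP9 stromal cells with 10 ng/ml IL7 and 80 ng/ml FLT3L. Serum and medium also differed from those of maintenance culture, so that cytokines, stroma and medium cannot be told apart.

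JAK kinases bound to cytokine receptors phosphorylate STAT5, which enters the nucleus as a dimer and binds paired TTC and GAA half-sites near its targets. CISH and the SOCS proteins then bind receptors or JAKs and dampen the signal, whereas PIM serine/threonine kinases need no activating phosphorylation, act according to their amount and favour growth and survival. IL7 signals through STAT5 in early lymphoid cells, and BCL6 is a repressor that STAT5 itself represses in that lineage.

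The promoter windows of the members most relevant to the values that follow are printed to show where a STAT half-site pair stood near the gene start. Each covers the 250 bases before an annotated start in RefSeq GRCm38.p6, read 5′ to 3′ on the gene's strand. Capitals mark the motif TTCNNNGAA, which reads the same on both strands. Lower-case windows contain no match. Windows were listed for 8 of the 10 members, 10 windows in all. The window of Socs3 (chr11:117969367-117969616, minus strand), those of Bcl6 (start site 1 at chr16:23988853-23989102 and start site 2 at chr16:23981284-23981533, minus strand), Cish (chr9:107296409-107296658, plus strand), start site 1 of Pim1 (chr17:29490535-29490784, plus strand), Pim2 (chrX:7878056-7878305, plus strand) and Il2ra (chr2:11642542-11642791, plus strand) read:
Socs3: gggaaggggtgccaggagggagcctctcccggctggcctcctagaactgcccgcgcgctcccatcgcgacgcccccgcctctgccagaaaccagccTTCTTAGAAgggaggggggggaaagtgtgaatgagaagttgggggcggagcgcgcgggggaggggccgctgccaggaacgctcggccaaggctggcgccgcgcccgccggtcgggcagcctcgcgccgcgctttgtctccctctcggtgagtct
Bcl6 start site 1: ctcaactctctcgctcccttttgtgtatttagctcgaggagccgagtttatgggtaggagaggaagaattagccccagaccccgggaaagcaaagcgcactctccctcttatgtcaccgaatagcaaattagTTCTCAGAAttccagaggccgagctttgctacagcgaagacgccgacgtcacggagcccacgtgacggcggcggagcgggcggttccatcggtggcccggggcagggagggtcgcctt
Bcl6 start site 2: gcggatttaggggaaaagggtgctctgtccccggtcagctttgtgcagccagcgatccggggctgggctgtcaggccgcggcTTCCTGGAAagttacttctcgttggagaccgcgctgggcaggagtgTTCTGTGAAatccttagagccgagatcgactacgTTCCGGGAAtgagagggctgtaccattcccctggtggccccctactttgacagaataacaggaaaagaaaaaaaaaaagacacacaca
Cish: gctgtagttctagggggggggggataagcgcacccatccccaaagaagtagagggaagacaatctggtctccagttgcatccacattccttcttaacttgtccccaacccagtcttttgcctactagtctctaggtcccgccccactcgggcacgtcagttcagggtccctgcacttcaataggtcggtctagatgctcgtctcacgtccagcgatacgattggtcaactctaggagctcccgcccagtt
Pim1 start site 1: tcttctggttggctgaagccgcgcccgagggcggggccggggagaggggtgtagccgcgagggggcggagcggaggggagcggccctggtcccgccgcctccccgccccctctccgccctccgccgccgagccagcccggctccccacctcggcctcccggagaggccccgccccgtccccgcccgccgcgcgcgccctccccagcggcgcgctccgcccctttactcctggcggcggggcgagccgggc
Pim2: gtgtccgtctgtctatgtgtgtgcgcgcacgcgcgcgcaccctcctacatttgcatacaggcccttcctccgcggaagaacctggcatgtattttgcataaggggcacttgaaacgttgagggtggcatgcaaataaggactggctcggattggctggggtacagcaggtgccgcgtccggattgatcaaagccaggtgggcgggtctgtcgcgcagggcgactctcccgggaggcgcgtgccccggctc
Il2ra: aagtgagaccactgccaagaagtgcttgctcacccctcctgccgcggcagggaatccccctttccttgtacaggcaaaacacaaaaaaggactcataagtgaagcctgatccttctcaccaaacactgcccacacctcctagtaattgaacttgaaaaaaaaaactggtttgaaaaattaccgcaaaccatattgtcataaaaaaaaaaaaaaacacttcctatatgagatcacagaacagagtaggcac

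The match in Socs3, TTCTTAGAA, lay 154 to 146 bases upstream of the start. Bcl6 held TTCTCAGAA 118 to 110 bases upstream of start site 1. Upstream of start site 2 it held TTCCTGGAA (168 to 160 bases), TTCTGTGAA (122 to 114 bases) and TTCCGGGAA (88 to 80 bases). The motif was thus in 3 of the 10 member windows, and in 7.02% of all 32851 windows listed. At least 2 matches, as in start site 2 of Bcl6, occurred in 0.317% of all windows. The sequence TGTGGT, a core bound by AML1 and its relatives and searched on both strands, was in 0 of the 10 member windows and in 14.045% of all windows. A match is a description of the letters, and its absence covers only these windows and these exact letters, not other forms of a site.

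Levels are given as deposited linear intensities, replicate 1 before replicate 2. Differences are log2 changes of intensity plus 16 ± SE, so that changes of dim genes are understated, and each fold is 2 to the power of that difference. All were taken from 1 limma fit of the 6 groups, with Benjamini-Hochberg adjustment over 12345 genes and a threshold of 0.05. The labels do not say whether the 2 arrays of a group came from separate cultures, so p-values measure only the spread between these arrays. Array medians ran from 68.1 to 72.9. The progenitor receptor gene Kit was bright everywhere, at 2186 to 2744, and the B lineage gene Cd79a was dim everywhere, at 39.5 to 49.1. Some other markers of these kinds moved in the empty-vector cells at day 5. The B lineage gene Ebf1 was higher by 1.93 ± 0.43 (limma adjusted p = 0.0175), and the summed B lineage markers went from 422 to 433 untreated to 573 to 635. Of 5 tested B lineage markers, Ebf1 was the only 1 called, and the list median was -0.018. The others were Vpreb1 at 0.08, Igll1 at -0.02, Pax5 at -0.04 and Cd79b at -0.08. Of 7 tested progenitor genes, Spi1, Ptprc and Cd34 were called lower in the empty-vector cells at day 5. The other 4 were not called: Runx1 at 0.27, Gata2 at 0.21, Myb at 0.20 and Kit at -0.10. At day 7 Runx1 and Myb were called higher in those cells and Ptprc lower. The summed intensity of 18 OP9 stroma markers was 1920 to 2383 on the untreated arrays and 2260 to 10093 on the treated ones. In such bulk samples, fewer cells of a type and less RNA per cell cannot be told apart.

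**Figure D1:**
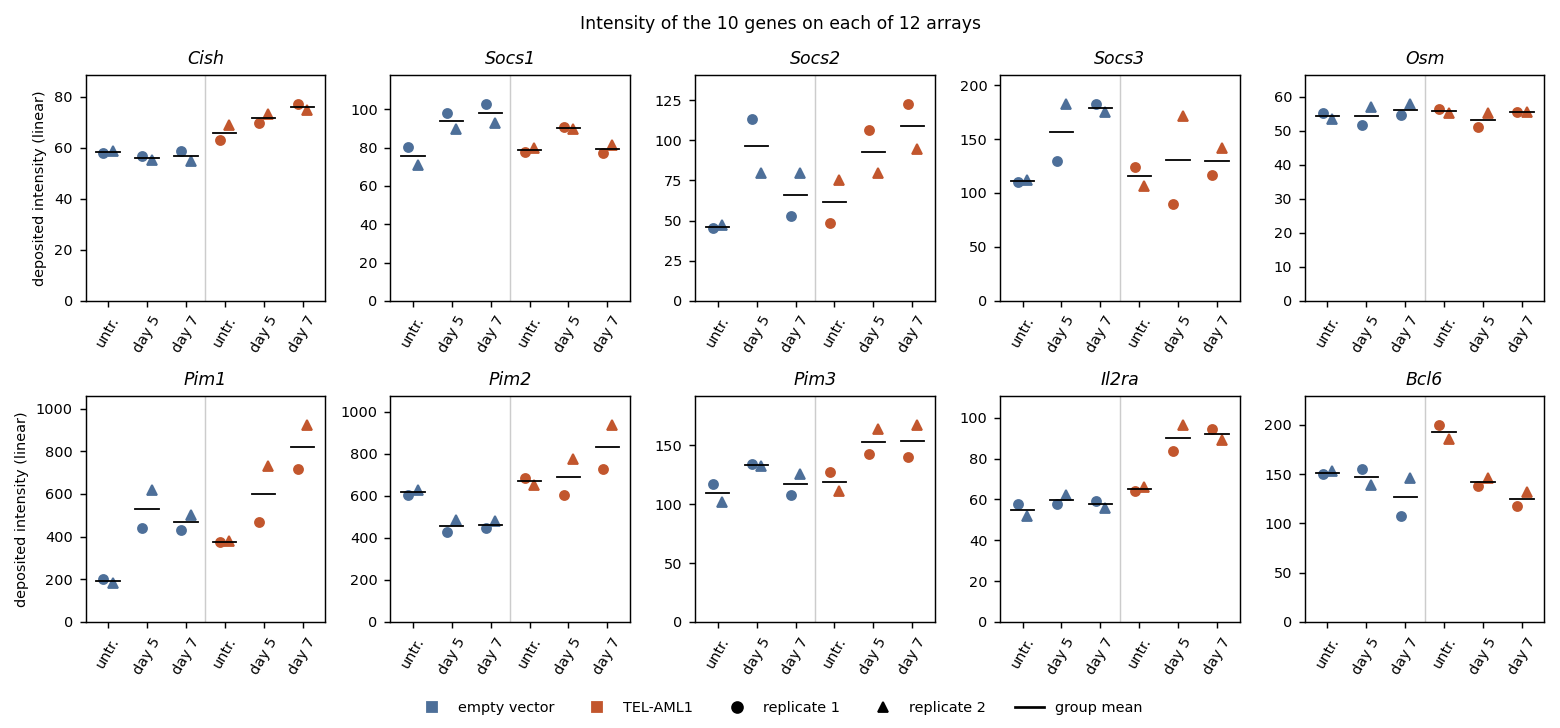
Deposited intensity (linear axis, scaled for each gene) of the 10 members on each of the 12 arrays, by vector and condition, with points for arrays and lines for group means. Pim1 spans 182 to 922, whereas Osm stays between 51.0 and 57.9; Cish and Il2ra are higher on every TEL-AML1 array than on any empty-vector array.

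Cish, which encodes an inhibitor that binds STAT5-activating receptors, was dim. Its intensities in the empty-vector cells were 58.0 and 58.8 untreated, 56.6 and 55.2 at day 5, and 58.5 and 54.7 at day 7. In the TEL-AML1 cells they were 63.0 and 68.8 untreated, 69.7 and 73.1 at day 5, and 77.1 and 74.6 at day 7. Every TEL-AML1 array was above every empty-vector array, and all 6 empty-vector arrays were under the filter value. Cish was higher in TEL-AML1 cells by 0.28 ± 0.071 at day 5 (1.22-fold, limma adjusted p = 0.0374) and by 0.34 ± 0.071 at day 7 (1.27-fold, limma adjusted p = 0.0118). Tested with no filter, among 18820 genes, these differences had adjusted p = 0.0235 and 0.00696. The day 5 call was lost without any 1 of the 4 compared arrays (adjusted p = 0.0766, 0.143, 0.0961 and 0.185 without replicates 1 and 2 of the empty vector and of TEL-AML1). It was also lost with a pseudocount of 64 (0.0734) and with the mean of the stroma list as a covariate, an alternative chosen after seeing the data (0.0757). The day 7 call was lost without TEL-AML1 replicate 1 (0.0742) or 2 (0.0505). When only the compared groups were fitted, both calls were lost (limma adjusted p = 0.209 at day 5 and 0.127 at day 7). Neither vector gave a called response of Cish to treatment.

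Socs1, an inhibitor of JAK kinases, behaved otherwise. Its empty-vector intensities were 80.2 and 70.8 untreated, 97.9 and 89.8 at day 5, and 103 and 92.9 at day 7. The TEL-AML1 intensities were 77.7 and 79.8 untreated, 90.6 and 89.4 at day 5, and 76.9 and 81.4 at day 7. The treated empty-vector arrays lay above the untreated ones without overlap, and the TEL-AML1 arrays at day 7 overlapped the untreated. Socs1 rose in the empty-vector cells at day 7 by 0.31 ± 0.081 (1.24-fold, limma adjusted p = 0.0285), and its day 5 difference of 0.26 ± 0.081 did not pass (0.0532), except with a pseudocount of 1 (0.0466) or no filter (0.0469). At day 7 TEL-AML1 differed from empty vector by -0.26 ± 0.081, which did not pass (adjusted p = 0.0726). The call at day 7 was lost without untreated replicate 1 (0.0635) or 2 (0.217), without day 7 replicate 1 (0.144), and after quantile normalization (0.0579), centring on array medians (0.0717) with the stroma covariate (0.0606), or when only the compared groups were fitted (0.117).

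Socs2 encodes a brake on growth hormone and other STAT5-linked receptors. Its empty-vector intensities were 45.3 and 47.1 untreated, 113 and 79.3 at day 5, and 52.9 and 79.4 at day 7. With TEL-AML1 they were 48.4 and 75.0 untreated, 106 and 79.4 at day 5, and 122 and 94.6 at day 7. All treated arrays were above the untreated empty-vector pair, and day 7 of the empty vector overlapped untreated TEL-AML1. Socs2 rose in the empty-vector cells at day 5 by 0.83 ± 0.22 (1.78-fold, limma adjusted p = 0.0294, or 0.0462 with no filter). The summed stroma markers were 10093 and 7969 on those day 5 arrays and 2525 and 6335 at day 7, in the same order as Socs2. In TEL-AML1 cells they were 8382 and 3810 at day 5, again in the order of Socs2. Their TEL-AML1 values at day 7 were 2260 and 4485, in the opposite order. Untreated empty-vector arrays had sums of 1979, then 1920. Untreated TEL-AML1 arrays had 2383, then 2193. These untreated orders were also opposite to that of Socs2. With the stroma list mean as a covariate the day 5 difference in empty-vector cells was 0.40 (limma adjusted p = 0.541). Because that mean itself rose with treatment, this value cannot tell stroma and treatment apart. The call was also lost without untreated replicate 1 (0.128) or 2 (0.145) or day 5 replicate 1 (0.137). A second Socs2 probe set gave 0.52 ± 0.15 (adjusted p = 0.0384). The vectors differed by 0.61 ± 0.22 at day 7, which did not pass (0.109).

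Socs3, which inhibits receptors that share the chain gp130, had no called change in the fit of all groups. Its empty-vector intensities were 109.9 and 112 untreated, 129.8 and 182 at day 5, and 182 and 175 at day 7. The TEL-AML1 arrays read 124 and 107 untreated, 89.6 and 171 at day 5, and 116 and 142 at day 7. The empty-vector difference at day 7 was 0.62 ± 0.23 (limma adjusted p = 0.0934). It was called when only the compared groups were fitted (0.035) and, at 0.88, with the stroma covariate (0.0405). A second Socs3 probe set gave 0.12 ± 0.080 for this response (limma adjusted p = 0.357). TEL-AML1 differed from empty vector by -0.43 ± 0.23 at day 7 (limma adjusted p = 0.29). Blocking on replicate number inside each condition, that vector difference was called (adjusted p = 0.0384). For that vector difference the second probe set gave -0.07 (adjusted p = 0.636), so the probe sets did not show the same size.

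Pim1 had the widest span of the members, with group means differing by up to 1.99 on the log2 scale. Its empty-vector intensities were 203 and 182 untreated, 440.4 and 620.3 at day 5, and 433 and 501 at day 7. With TEL-AML1 they were 374 and 379 untreated, 468 and 730.5 at day 5, and 716 and 922 at day 7. The untreated empty-vector arrays were lowest, the untreated TEL-AML1 arrays came next, and all treated arrays were above both. Untreated TEL-AML1 cells exceeded empty-vector cells by 0.91 ± 0.21 (1.88-fold, 95% interval 0.45 to 1.38, limma adjusted p = 0.0203). At day 7 the difference was 0.78 ± 0.21 (1.72-fold, adjusted p = 0.0371), and at day 5, where the arrays of the vectors overlapped, it was 0.16 ± 0.21 and did not pass (0.734). The day 7 vector call of Pim1 was lost when only the compared groups were fitted.

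In the empty-vector cells Pim1 rose by 1.37 ± 0.21 at day 5 (2.59-fold, limma adjusted p = 0.0040) and by 1.21 ± 0.21 at day 7 (2.31-fold, adjusted p = 0.00615). In TEL-AML1 cells it rose by 1.08 ± 0.21 at day 7 (2.11-fold, adjusted p = 0.0141), whereas the day 5 difference of 0.62 ± 0.21 did not pass (0.218). The untreated vector call was lost without any 1 of the 4 arrays (adjusted p from 0.0889 to 0.151). At day 7 the vector call was lost without empty-vector replicate 1 (0.155) or 2 (0.0533), without TEL-AML1 replicate 1 (0.0553) or 2 (0.241), and with no filter (0.0609). The empty-vector responses lost their calls without untreated replicate 2 (0.0513 at day 5 and 0.0645 at day 7). The day 5 response was 1.55 with the stroma covariate (0.0628). The TEL-AML1 response at day 7 lost its call without untreated replicate 1 (0.0973) or 2 (0.0988), or day 7 replicate 2 (0.0834).

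Pim2 encodes a kinase close to PIM1 that is known for survival signals in blood cells. Its empty-vector intensities were 606 and 629 untreated, 428 and 486 at day 5, and 445 and 482 at day 7. The TEL-AML1 arrays read 685 and 654 untreated, 604 and 776 at day 5, and 727 and 937 at day 7. The treated empty-vector arrays were the lowest, and no TEL-AML1 array at day 5 or day 7 overlapped them. Pim2 was higher in TEL-AML1 cells by 0.57 ± 0.14 at day 5 (1.48-fold, 95% interval 0.26 to 0.87, limma adjusted p = 0.0314) and by 0.81 ± 0.14 at day 7 (1.76-fold, 95% interval 0.51 to 1.12, adjusted p = 0.00386). The day 5 call was lost without empty-vector replicate 1 (0.131) or 2 (0.0733), or TEL-AML1 replicate 2 (0.2), and the day 7 call was kept without each of the 4 arrays. Both vector calls were lost when only the compared groups were fitted (limma adjusted p = 0.0513 at day 7). The empty-vector differences from untreated were -0.42 ± 0.14 at day 5 (0.0625) and -0.40 ± 0.14 at day 7 (0.073), and neither passed. After centring on array medians both were called (0.0423 and 0.0376), as was day 5 when only the compared groups were fitted (0.0297).

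Pim3 intensities in empty-vector cells were 117 and 102 untreated, 134 and 132 at day 5, and 108 and 126 at day 7. In TEL-AML1 cells they were 127 and 111 untreated, 142 and 164 at day 5, and 139.9 and 167 at day 7. The vectors did not overlap at day 5 or day 7. The day 7 difference of 0.35 ± 0.11 did not pass (limma adjusted p = 0.0802), and with the replicate block it was called (0.0139).

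Osm encodes oncostatin M, the ligand of gp130-containing receptors. Its 12 intensities ran from 51.0 to 57.9, below the filter value of 59.9, and its group means spanned 0.06 on the log2 scale. No group stood apart from the others at that brightness, and Osm was not tested.

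Il2ra encodes the alpha chain of the IL2 receptor, which raises its affinity for IL2. Its empty-vector intensities were 58.0 and 51.9 untreated, 57.6 and 62.1 at day 5, and 59.5 and 56.0 at day 7. In TEL-AML1 cells they were 64.1 and 66.2 untreated, 83.7 and 96.4 at day 5, and 94.5 and 89.4 at day 7. Every TEL-AML1 array was above every empty-vector array, and the treated TEL-AML1 arrays were above the untreated ones. TEL-AML1 cells were higher by 0.48 ± 0.084 at day 5 (1.40-fold, limma adjusted p = 0.00641) and by 0.55 ± 0.084 at day 7 (1.46-fold, adjusted p = 0.00221). With no filter the adjusted p were 0.00626 and 0.00221. When only the compared groups were fitted, the day 5 vector call was lost (0.0849) and the day 7 vector call was kept. The untreated difference of 0.19 ± 0.084 did not pass (0.232). In TEL-AML1 cells Il2ra rose by 0.41 ± 0.084 at day 7 (1.33-fold, adjusted p = 0.017), and the day 5 difference of 0.38 ± 0.084 did not pass (0.0543). It passed after quantile normalization (0.0454), centring (0.0455) or with no filter (0.0487). The day 7 vector call was kept without each array, the day 5 vector call was lost without TEL-AML1 replicate 2 (0.0521), and the response was lost without any 1 of its 4 arrays (0.0526 to 0.127).

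Bcl6 intensities in empty-vector cells were 150.2 and 153 untreated, 155 and 139 at day 5, and 108 and 146 at day 7. In TEL-AML1 cells they were 199.7 and 186 untreated, 138 and 146 at day 5, and 118 and 132 at day 7. The untreated TEL-AML1 arrays stood above all others. TEL-AML1 arrays at day 7 were all below those at day 5, but the difference of -0.17 ± 0.12 did not pass (limma adjusted p = 0.718). The empty-vector arrays at day 7 were all below the untreated ones, and that difference of -0.25 ± 0.12 did not pass either (0.188). In TEL-AML1 cells Bcl6 fell by 0.57 ± 0.12 on the log2 scale at day 7 (a 1.49-fold decrease, limma adjusted p = 0.018), and the untreated vector difference of 0.32 ± 0.12 did not pass (0.157). The empty-vector difference at day 7 was called without its day 7 replicate 2 (-0.44, adjusted p = 0.0136) and with the stroma covariate (-0.41, 0.0487). The fall was not called without untreated replicate 1 (0.137) or 2 (0.0974), or day 7 replicate 1 (0.127).

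Between the vectors, 1 of the 9 tested members was higher in untreated TEL-AML1 cells and 0 were lower, where 8.88% of all tested genes were called, 2.72% higher and 6.16% lower. At day 5, 3 of 9 were higher (Cish, Pim2 and Il2ra), against 7.28% of genes called, 3.01% higher and 4.27% lower. At day 7, 4 of 9 were higher (Cish, Pim1, Pim2 and Il2ra), against 11.3% of genes called, 5.24% higher and 6.01% lower. The day 5 and day 7 counts include Cish and Il2ra, which were tested only through their TEL-AML1 levels. Among the 6 members above the filter value in every group, 1 (Pim1), 1 (Pim2) and 2 (Pim1 and Pim2) were called. With no filter, all 10 members could be tested among 18820 genes: 1, 3 and 3 were called, beside 5.88%, 4.67% and 7.34% of genes, and the day 7 call of Pim1 was lost. The median difference over all 10 was then 0.12 untreated, 0.07 at day 5 and 0.35 at day 7, beside -0.00063, -0.01 and -0.02 over all genes. With the replicate block, 14.8% of genes were called at day 5 with the same 3 members, and 17.9% at day 7 with 6 members. When only the compared groups were fitted, 2 members were called untreated (Pim1 and Bcl6), 0 at day 5 and 1 at day 7 (Il2ra). All day 5 calls were thus lost, as were the day 7 calls of Cish, Pim1 and Pim2 (limma adjusted p = 0.0513 for Pim2). Markers of mast cells moved with the vector: 3, 3 and 4 of 6 tested were higher in TEL-AML1 cells and 0 were lower. Their summed intensity was 4696 to 5906 on empty-vector arrays and 6106 to 9838 on TEL-AML1 arrays. Of 13 tested stroma markers, 1 (Pdgfrb, bright in all groups) was called higher in TEL-AML1 cells in each condition. The other 12 had negative differences at day 5 and day 7 that did not pass, and the list medians were -0.78 and -0.55. The part of the mast cell and stroma markers in the members' differences was not tested.

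**Figure D2:**
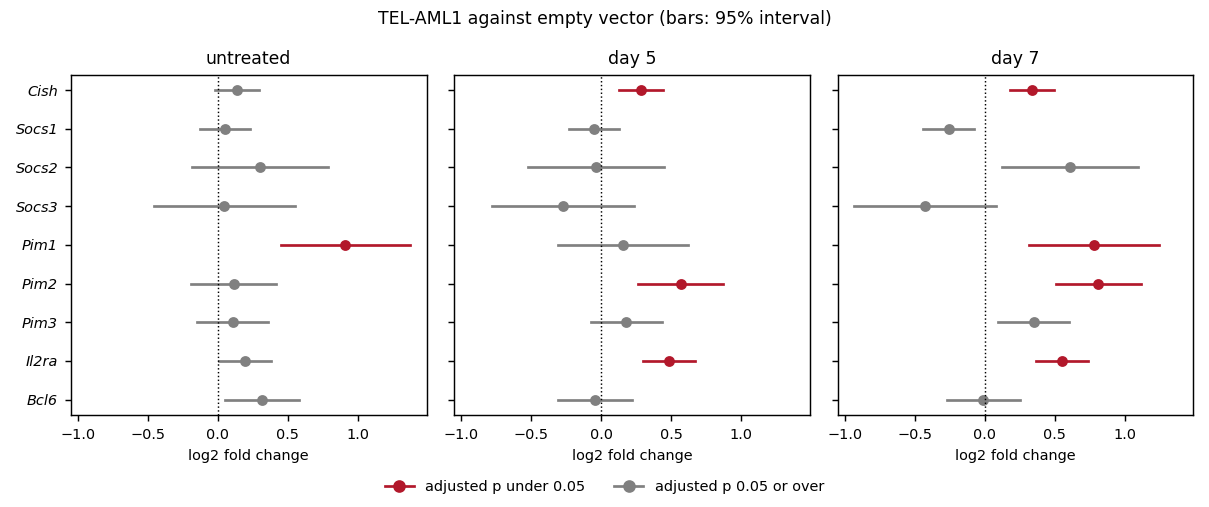
Log2 difference of TEL-AML1 over empty vector for the 9 tested members in each condition, with 95% intervals from limma. Pim2 goes from 0.57 at day 5 to 0.81 at day 7, and the untreated values are led by Pim1 at 0.91.

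In the empty-vector cells, 2 of 9 members rose at day 5 (Socs2, under the filter value when untreated, and Pim1), where 15.5% of all genes were called, 8.37% higher and 7.15% lower. Likewise 2 of 9 rose at day 7 (Socs1 and Pim1), where 15.5% were called, 6.29% higher and 9.18% lower. Over all genes, 1033 rose and 883 fell at day 5, or 766 and 1055 after centring on array medians. At day 7, 776 rose and 1133 fell, or 538 and 1604 after centring. In the TEL-AML1 cells 0 of 9 members were called by limma at day 5, where 1.6% of genes were called (1.17% higher and 0.429% lower) and 5 members had an unadjusted p under 0.05. At day 7, 3 of 9 were called (Pim1 and Il2ra higher, Bcl6 lower), where 7.81% of genes were called, 4.74% higher and 3.07% lower. Over all genes 585 rose and 379 fell there, or 502 and 502 after quantile normalization. Of 13 tested stroma markers, 12 rose in the empty-vector cells at day 5 and 2 at day 7. In the TEL-AML1 cells limma called 0 at either day, with an unadjusted p under 0.05 for 12 at day 5 and 1 at day 7. The stroma list mean used as a covariate itself rose with treatment. It was 6.43 to 6.54 (log2) on the untreated arrays, and 8.40 and 8.08 on the empty-vector arrays at day 5. That covariate therefore cannot tell stroma and treatment apart, and the part of the stroma in the members' responses was not tested.

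**Figure D3:**
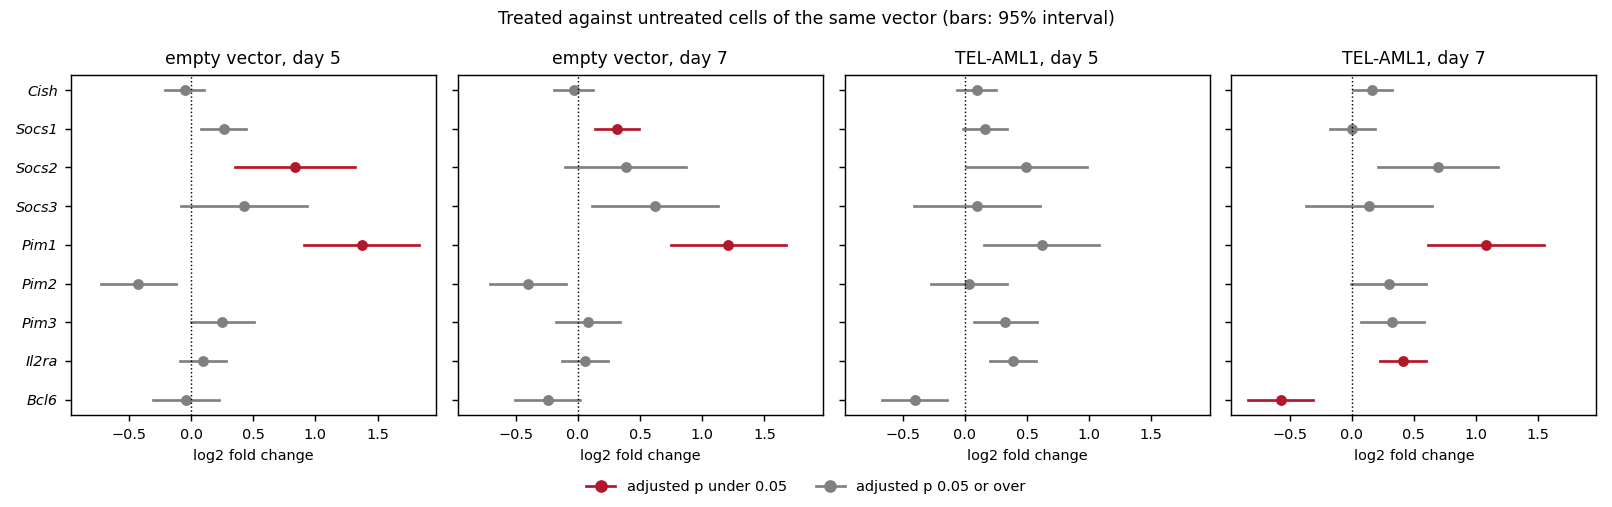
Log2 difference of day 5 and day 7 from untreated for the 9 tested members, by vector, with 95% intervals from limma. Pim1 is highest in the empty-vector cells at 1.37 and 1.21; Bcl6 is lowest in TEL-AML1 cells, at -0.57 on day 7.

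Day 7 did not separate from day 5: limma called 0 of 9 members and 0% of genes in either vector, and 0 members had an unadjusted p under 0.05. The difference between the vectors in their response was tested directly, and limma called 0 of 9 members at day 5 and 0 of 9 at day 7. Of all genes, 0.0324% were called at day 5 (0.0162% higher and 0.0162% lower) and 0.081% at day 7 (0.0567% higher and 0.0243% lower). With the replicate block, which pairs the arrays of these differences, 0.0729% and 0.259% of genes and again 0 members were called. At each day 3 members had an unadjusted p under 0.05. At day 5 these were Pim1 at -0.75 ± 0.30 (adjusted p = 0.623), Pim2 at 0.46 ± 0.19 (0.637) and Il2ra at 0.29 ± 0.12 (0.624). At day 7 they were Pim2 at 0.70 ± 0.19 (0.335), Il2ra at 0.35 ± 0.12 (0.41) and Socs1 at -0.31 ± 0.11 (0.477). Responses called in one vector only are therefore not shown to differ between the vectors.

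Genes upstream of the members were read from lists for the same pathway. Among 14 tested receptor genes, the shared beta chain genes Csf2rb and Csf2rb2, which serve the IL3, GM-CSF and IL5 receptors, were higher in TEL-AML1 cells at day 7 by 0.81 ± 0.094 (limma adjusted p = 0.000444) and 0.77 ± 0.091 (0.000524). Il4ra, the IL4 receptor chain, was higher at day 5 by 0.64 ± 0.12 (0.00975) and at day 7 by 0.66 ± 0.12 (0.00649). Il6st, which encodes gp130, was lower in all 3 conditions, with limma adjusted p = 0.0403, 0.0196 and 0.0283. In all, 1, 1 and 3 receptors were higher and 1, 1 and 1 lower. In the empty-vector cells Ghr, Lifr and Osmr rose at day 5, when the stroma markers were highest, and Il4ra and Csf2rb2 fell at day 7. Epor, the erythropoietin receptor gene, rose in TEL-AML1 cells at day 7. Il7r was called in no comparison. It read 159 on 1 TEL-AML1 array at day 7 and 52.4 on the other, and 51.7 to 73.9 in the remaining groups. Flt3, at 45.3 to 55.9, was not tested.

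Of 8 tested JAK and STAT genes, limma called 0 between the vectors in any condition, and 0, 1 and 3 had an unadjusted p under 0.05 untreated, at day 5 and at day 7. Stat5a and Stat5b were called nowhere, with vector differences at day 7 of 0.04 (limma adjusted p = 0.782) and 0.17 (0.19). Stat2, which carries interferon signals, rose in the empty-vector cells at day 5 by 0.80 ± 0.16 (0.0111) and in the TEL-AML1 cells at day 7 by 0.70 ± 0.16 (0.0249). Of 8 tested interferon-induced genes, 6 and 6 rose in the empty-vector cells at days 5 and 7, and 5 and 7 in the TEL-AML1 cells. Between the vectors, Rsad2 and Irf1 were higher with TEL-AML1 at day 7. The summed intensity of all 10 listed interferon genes was 703 to 728 on untreated arrays and 3237 to 5147 on treated ones. Some SOCS genes also respond to interferons, and the part of that shift in the members' responses was not tested.

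Among 15 other inhibitors, 0, 0 and 0 were higher and 2, 1 and 4 lower in TEL-AML1 cells untreated, at day 5 and at day 7. The adaptor gene Sh2b3, whose product restrains JAK2, was lower in untreated TEL-AML1 cells, with a difference of -0.50 ± 0.10 (limma adjusted p = 0.0114), and at day 7, with -0.56 (0.00556). The phosphatase gene Ptpn11 was lower in the same conditions, with differences of -0.40 ± 0.073 (0.00683) and -0.39 (0.00721). Both lie in the distal stretch of chromosome 5 from Taok3 to Rfc3, where 198, 147 and 172 of 332 tested genes were lower with TEL-AML1 in the 3 conditions, with medians of -0.46, -0.35 and -0.38. The part of that stretch in these differences was not tested, and no member lies on chromosome 5. The phosphatase gene Ptpn1 was lower at days 5 and 7 and the inhibitor Pias3 at day 7. With treatment, Socs5 and Socs4 fell and Ptpn1 and Cblb rose in the empty-vector cells at both days.

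Of 11 other STAT5 targets, Gfi1, a transcriptional repressor, was higher with TEL-AML1 untreated (0.37, limma adjusted p = 0.0308) and at day 7 (0.42, 0.0153). The cyclin gene Ccnd2 was lower untreated, with a difference of -0.98 ± 0.12 (0.000554), and Spi1, which encodes the transcription factor PU.1, was higher at day 5 (0.34, 0.0437). The survival gene Bcl2 rose with treatment in the empty-vector cells at day 5 by 0.44 and at day 7 by 0.68, and in TEL-AML1 cells at day 7 by 0.41. It was lower in TEL-AML1 cells at day 7, with a difference of -0.37 (0.0279). Igf1 rose by 1.81 and Spi1 fell in the empty-vector cells at day 5. Over the 3 conditions, 1, 1 and 1 of these targets were higher and 1, 0 and 1 lower with TEL-AML1.

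**Figure D4:**
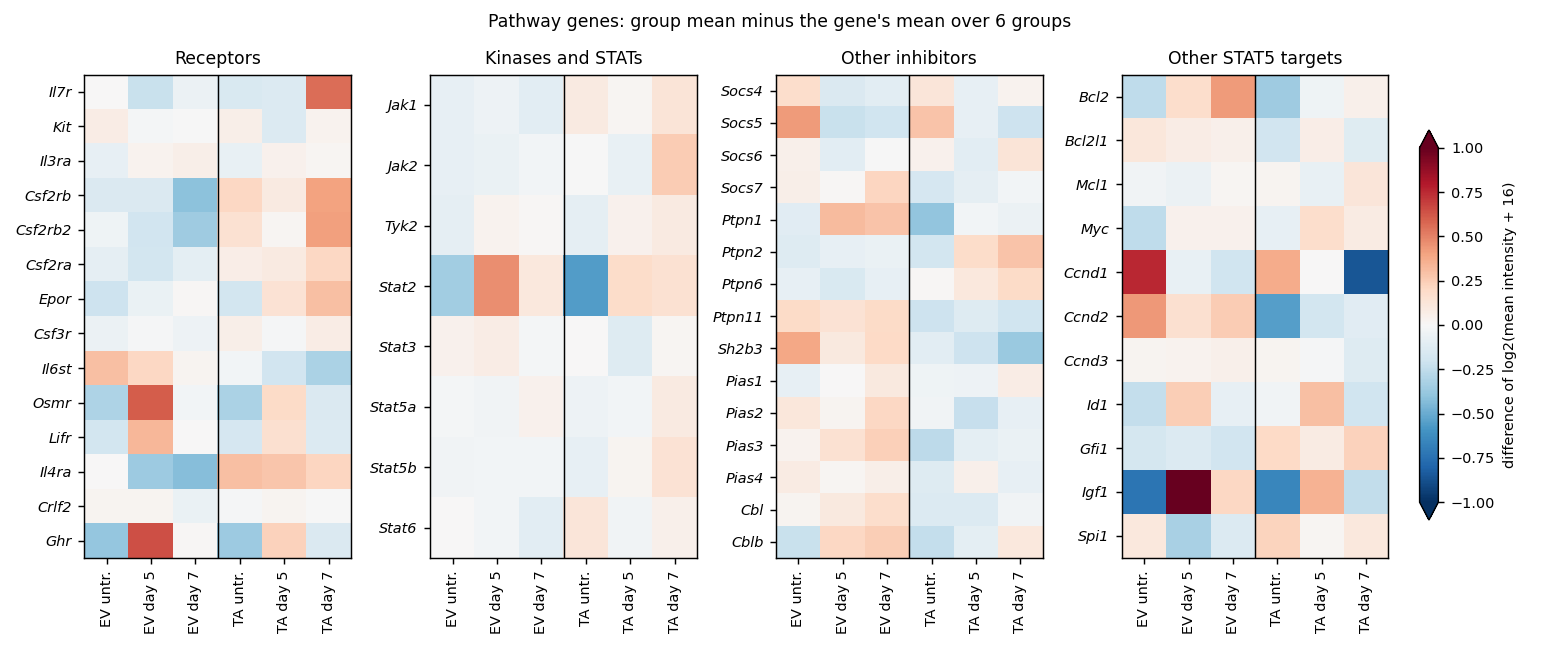
Each cell shows a pathway gene's group mean minus that gene's mean over the 6 groups, on the log2(mean intensity + 16) scale, for empty-vector (EV) and TEL-AML1 (TA) cells. Csf2rb and Csf2rb2 are red in TEL-AML1 cells at day 7, and the Stat5a and Stat5b strips stay near white.

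The members did not follow 1 pattern. Over the 6 centred group means, the closest pairs were Pim3 with Il2ra and Cish with Pim3, each with a root mean square difference of 0.112, then Socs1 with Socs3 at 0.124 and Cish with Il2ra at 0.126. Among all tested genes, the closest to Pim1 were Mctp1 (0.0633), Ctse (0.134) and Mylip (0.136), where the median over genes was 0.627. The closest to Socs2 were Armcx2 (0.0619), Txnip (0.0992) and Fgfr1 (0.106), and the closest to Pim2 were Adk (0.0651), Atp2b4 (0.0708) and Zfp622 (0.0826), with medians of 0.366 and 0.319. In order of level, the empty-vector groups of Cish and Il2ra came lowest, followed by untreated and then treated TEL-AML1. Neighbouring empty-vector groups overlapped, although Cish at day 5 lay below untreated. Those treated groups did not overlap for Cish and did overlap for Il2ra.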

How the data were processed

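Transcripts of EML1 cells with empty pWPI or TEL-AML1 were measured on 12 Affymetrix arrays, 2 for each of 6 groups taken from the sample titles. The deposited table holds 1 linear intensity per probe set (35556, from 15.2 to 7932), and for these the authors' background correction, probe summary and normalization are not given in the sources used here. Names came from the platform annotation: 21218 probe sets listed 1 gene, 1881 several and 12457 none, and 21185 of the 21218 matched the GRCm38.p6 gene table, with 0 symbols changed. A gene was represented by its probe set with the highest mean log2 intensity and kept above the 40th percentile (59.9). Values were log2(intensity + 16). With limma 3.58.1, 1 linear model of the 6 groups was fitted in R 4.3.3 (6 residual and 4.22 prior degrees of freedom, median SE 0.0989), Benjamini-Hochberg adjusted over 12345 genes, with a threshold of 0.05, and checked on simulated data. Precision is limited by 2 arrays a group and by brightness.

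Members and gene lists were chosen with earlier results of these data known. All members are described. Up to 4 called genes per list and comparison, those with the smallest adjusted p, could be named, and the 3 genes nearest in pattern to the 3 members with the largest range of group means; Il7r, Flt3, Stat5a and Stat5b were added after their values were seen. Same-numbered arrays of the 2 vectors deviated together within a condition (correlations 0.433 untreated, 0.542 at day 5 and 0.378 at day 7), whereas the labels do not say what a number marks; the number was therefore tried as a block within each condition. Alternatives were quantile normalization, median centring, other pseudocounts and filters, fits of the compared groups alone, the block, leaving out each array and, chosen after seeing the data, the mean of the stroma list as a covariate.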

Additional observations from a re-analysis of the deposited data

Results flagged for a closer look

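The response of the interferon-induced gene Rsad2 to day 7 of treatment differed between the vectors by a test of the difference itself: it was 1.39 ± 0.19 larger on the log2 scale in TEL-AML1 than in empty-vector cells (limma adjusted p = 0.0315). No STAT5 feedback target had a called difference of that kind.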

How the results depend on the processing

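Over 42 pairs of member and comparison that had an unadjusted p under 0.05 in the reported fit or were called in some setting, 594 alternative values were computed. Of these 515 kept their direction and side of the threshold, 51 lost the call, 28 gained one and 0 turned direction. Of 820 values for the other 57 pairs, 61 turned direction, in 28 pairs, and none of these pairs was called in any setting. Of the 15 called pairs, 152 of 203 alternative values kept the call. Counts that moved are given as genes called or members called. Fitting only the compared groups gave 2369 genes and 2 members for the vectors untreated (reported 1096 and 1), 325 and 0 at day 5 (899 and 3) and 367 and 1 at day 7 (1389 and 4). It gave 295 genes for the empty vector at day 7 (1909), 1638 for TEL-AML1 at day 7 (964), and 16 and 3 for the difference in response at days 5 and 7 (4 and 10). With no filter the difference at day 7 had 5 genes. At the 60th percentile (94.0) Cish, Socs1, Socs2 and Il2ra were not tested, and 1 member was called for the vectors at day 5, 2 at day 7, and 1 in each empty-vector response (2 each). Those counts rest on Socs3, Pim1, Pim2, Pim3 and Bcl6 alone, tested among 8741 genes. Quantile normalization left 1 member in the empty-vector day 7 response. The TEL-AML1 day 5 response (0 members) had 1 member under quantile normalization, centring and no filter. A pseudocount of 64 called 1 gene between day 7 and day 5 of TEL-AML1 (0). The stroma covariate gave 347 genes and 0 members for the empty vector at day 5 (1916 and 2), 83 genes for TEL-AML1 at day 5 (197) and 9 for the difference at day 5.

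With the replicate block the vectors differed in 1823 genes at day 5 and 2207 at day 7, where 6 members were called. For the differences in response, which the block also pairs, it gave 9 and 32 genes. For comparisons between days it pairs no compared groups, and its errors leave out spread between arrays that those comparisons hold. It gave 2978 genes and 6 members for the empty vector at day 5, 3578 and 4 at day 7, 893 and 4 for TEL-AML1 at day 5, 1769 and 5 at day 7, and 285 and 4 genes between the days. Fitting only the compared groups also called Socs2 in the TEL-AML1 day 7 response (0.69, limma adjusted p = 0.0485). Apart from Pim3 and Socs3 at day 7, the block changed no call of a member between the vectors.

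Leaving out 1 array at a time gave, for the vectors, 476 to 532 genes and 0 to 0 members untreated, 450 to 799 and 0 to 2 at day 5, and 753 to 1728 and 2 to 3 at day 7. For the empty vector it gave 202 to 1492 and 0 to 2 at day 5, 304 to 2797 and 0 to 3 at day 7, and 0 to 70 genes between days. For TEL-AML1 it gave 79 to 279 genes at day 5, 199 to 507 and 0 to 1 at day 7, and 0 to 17 genes between days. For the differences in response it gave 1 to 5 and 0 to 74 genes. The cause of these moves was not tested beyond the fewer arrays or genes each setting holds. Cish, Socs1, Socs2 and Il2ra lie near the dim end of the arrays, which limits how finely their folds are known.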

Other observations

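In all 4 treated groups, Pim1 and Pim2 were brighter on replicate 2 than on replicate 1, whereas the summed stroma markers were higher on replicate 1 in both day 5 groups (10093 against 7969 and 8382 against 3810) and on replicate 2 in both day 7 groups (6335 against 2525 and 4485 against 2260).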
